A study of Mus musculus with 12 samples.

Results

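The genes described are the clustered replication-dependent histone genes of the mouse, 69 of the 39017 genes counted. They are every gene whose symbol starts with Hist1h, Hist2h, Hist3h or Hist4h, after 1 pseudogene was dropped. By type they are 6 genes for the linker histone H1, 20 for H2A, 18 for H2B, 12 for H3 and 13 for H4. Of these, 56 lie on chromosome 13 (Hist1), 10 on chromosome 3 (Hist2), 2 on chromosome 11 (Hist3) and 1 on chromosome 6 (Hist4). RNA was sequenced from 12 samples of 4T1, a BALB/c mouse line used as a model of triple-negative breast cancer. The groups were 3 KO-labelled tumors (genotype POGZ KO), 3 VC-labelled tumors (genotype POGZ WT), 3 KO-labelled cultures and 3 VC-labelled cultures. The series concerns loss of POGZ, a zinc finger partner of the heterochromatin protein HP1, and the comparison asks how histone RNA differed between the labels in each system. Cultured cells were grown in DMEM with 10% FBS and taken at 75% confluency, and tumors were grown in the mammary fat pad of mice aged 8 weeks from an inoculum of 50000 cells and resected at 28 days.

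Replication-dependent histones are the proteins that package newly copied DNA, and their genes are transcribed mainly in S phase. Core histones H2A, H2B, H3 and H4 form the nucleosome, and H1 binds the linker DNA between nucleosomes. Their mRNAs, unlike most others, end in a conserved stem-loop in place of a poly(A) tail, which is bound by the stem-loop binding protein SLBP and read by the U7 snRNP for 3′ end cleavage. The libraries were made from total RNA after depletion of ribosomal RNA, a kind of library that also takes up mRNA without a poly(A) tail.

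The stem-loop is shown because it is the element that defines these mRNAs. The stem-loop was searched for in GENCODE M21 transcripts as 16 letters: GGNNC, then TTTTNAG, then NNCC. It was found on the sense strand after the stop codon of 44 of the 69 genes (63.8%). Other genes were searched over the whole transcript, a wider region, and 28 of 21835 with a protein-coding transcript held it (0.128%). Among the 51 members with at least 40 bases annotated after the stop codon, 44 (86.3%) held it. The most common form, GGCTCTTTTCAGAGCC, was found in 26 members of types H1, H2A, H2B and H3. The forms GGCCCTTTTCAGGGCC (7 members), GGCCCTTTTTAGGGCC (2 members) and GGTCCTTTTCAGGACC (2 members) were found in H4 genes. Examples from members that the results turn on follow, 5′ to 3′ on the transcript, with the stem-loop in capitals.
Hist1h1e: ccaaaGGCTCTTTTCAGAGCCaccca
Hist1h2ac: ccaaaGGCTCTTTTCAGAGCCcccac
Hist1h3d: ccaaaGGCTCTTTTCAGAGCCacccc
Hist2h4: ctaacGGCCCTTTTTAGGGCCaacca
Hist4h4: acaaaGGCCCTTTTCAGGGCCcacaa

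Promoters are shown because H1, H2A and H2B, H3 and H4 genes carry different known elements and the results are given by type. RefSeq promoters (GRCm38.p6, 250 bases before to 50 bases after the start) matched 61 of the 69 genes. The windows below run from 140 bases before the start to 10 after it, 5′ to 3′ on the gene's strand. Capitals mark matches, on either strand, to the CCAAT box (CCAAT), the TATA box (TATAAA), the octamer bound by Oct1 (ATTTGCAT) or the core of the H4 subtype element bound by HINFP (GGTCCG), the last known from human cells.
Hist1h1e (chr13:23622549-23622698, minus strand): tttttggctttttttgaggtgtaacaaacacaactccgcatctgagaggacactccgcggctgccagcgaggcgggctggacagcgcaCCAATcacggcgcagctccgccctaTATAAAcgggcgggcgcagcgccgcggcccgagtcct
Hist1h2ac (chr13:23683950-23684099, minus strand): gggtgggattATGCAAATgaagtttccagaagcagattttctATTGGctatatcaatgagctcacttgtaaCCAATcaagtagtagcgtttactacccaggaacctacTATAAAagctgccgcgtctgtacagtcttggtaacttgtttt
Hist2h2bb (chr3:96269560-96269709, plus strand): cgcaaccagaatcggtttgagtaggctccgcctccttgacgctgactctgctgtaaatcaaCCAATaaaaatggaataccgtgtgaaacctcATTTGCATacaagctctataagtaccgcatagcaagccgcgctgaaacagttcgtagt
Hist1h3d (chr13:23575623-23575772, plus strand): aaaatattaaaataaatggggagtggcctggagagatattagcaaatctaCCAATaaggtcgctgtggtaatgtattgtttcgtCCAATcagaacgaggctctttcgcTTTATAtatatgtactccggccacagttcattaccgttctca
Hist4h4 (chr6:136804422-136804571, minus strand): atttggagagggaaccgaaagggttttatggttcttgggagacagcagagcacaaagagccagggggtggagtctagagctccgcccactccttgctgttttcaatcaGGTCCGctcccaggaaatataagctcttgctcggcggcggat

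CCAAT was found in all 49 matched promoters of H1, H2A, H2B and H3 genes and in 3 of 12 of H4 genes (25.0%). The share was 41.1% over 27025 genes with a RefSeq promoter. A gene with several promoters counted as holding a motif if any of them did. GGTCCG was found in 11 of 12 H4 promoters (91.7%), in 1 of 16 of H2B genes and in 1 of 10 of H3 genes. Its share was 9.44% over all genes with a promoter. The octamer was found in 7 of 17 H2A promoters (41.2%) and 7 of 16 H2B promoters (43.8%) and in no H1, H3 or H4 promoter. Some H2A and H2B neighbours have overlapping windows, so 1 site can count for both genes. This holds for the octamers of Hist1h2aa and Hist1h2ba, Hist1h2ae and Hist1h2bg, and Hist1h2ah and Hist1h2bk. Hist1h2bq and Hist1h2br have identical windows, so the promoters counted here for any motif are not all independent. The octamer's share was 1.97% over all genes with a promoter. TATAAA was found in 35 of the 61 (57.4%), against 15.7%. In 1 promoter, matches to different motifs overlapped.

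**Figure D1:**
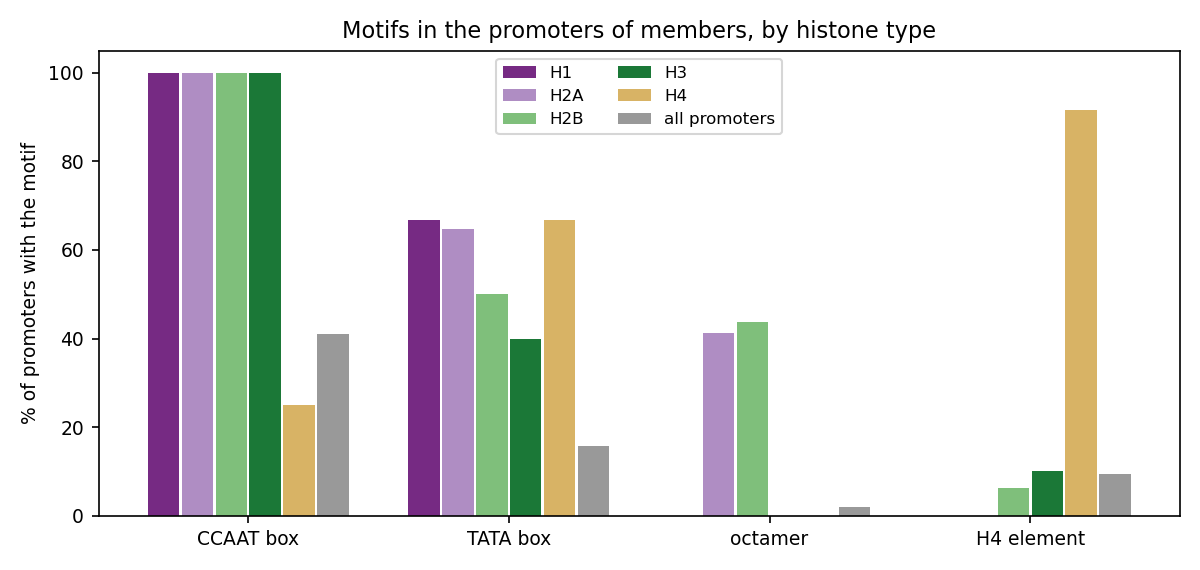
Share (%, y axis) that hold each of 4 motifs (x axis), for the matched genes of each histone type (coloured bars) and for all genes with a RefSeq promoter (grey). A gene counts once, if any of its promoters holds the motif. The CCAAT box stood at 100% in H1, H2A, H2B and H3, and the H4 element at 91.7% in H4.

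Total counts were 12128993 to 13043831 in KO-labelled tumors, 4712001 to 8338828 in VC-labelled tumors, 14724518 to 21863223 in KO-labelled cultures and 17714560 to 18643217 in VC-labelled cultures. Pogz RNA, the check of the labels, was not lower under the KO label. It had 131, 106 and 84.5 CPM (counts scaled to a common library total) in KO-labelled tumors, 86.0, 103 and 109 in VC-labelled tumors, 68.4, 67.8 and 68.6 in KO-labelled cultures and 50.9, 52.0 and 48.1 in VC-labelled cultures. Its log2 fold change, KO over VC, was 0.45 ± 0.04 (standard error, SE) in cultures (edgeR quasi-likelihood test, Benjamini-Hochberg adjusted p = 3.66e-06) and 0.11 ± 0.20 in tumors (adjusted p = 0.944). Counts over a whole gene do not show whether an exon or the reading frame was lost. The labels do not say whether the 3 cultures of a label are separate clones or cultures, so each p measures the spread between these samples, and label and line cannot be told apart. The 4 epithelial markers (Epcam, Krt8, Krt18 and Cdh1) summed to 1377 to 1540 CPM in KO-labelled tumors, 1576 to 1856 in VC-labelled tumors, 2533 to 2592 in KO-labelled cultures and 2310 to 2598 in VC-labelled cultures.

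In cultures, many histone genes of the core types had less RNA under the KO label, and no H1 gene passed the test. Of 66 members with enough counts to be tested, 32 fell and 1, Hist2h2be, rose (edgeR quasi-likelihood test, Benjamini-Hochberg adjusted p under 0.05). Over all 15705 genes tested, 47.9% were called, with 24.9% lower and 23% higher. The median log2 fold change, KO over VC, was -0.23 over the 66 members and -0.01 over all genes, and 61 of the 66 values were below 0. All 3 KO-labelled cultures lay below all 3 VC-labelled cultures in 32 of the 66 members, against 29.8% of all genes, and above them in 1, against 25.8%. The count of members that fell was 18 without KO-labelled culture 1 and 24 without VC-labelled culture 3. Over all genes, 3240 of 16053 and 3685 of 15941 fell in these 2 settings, against 3913 of 15705 in the main fit. In 1 fit of all 12 samples, which shares 1 estimate of the spread with the tumors, 2 members fell, Hist4h4 and Hist1h2ac, and 0 rose, against 838 and 663 of 18419 genes.

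The count of members that fell is given by type. H3 had 9 of 12 members lower, H2B 11 of 18 (and 1 higher), H2A 7 of 18, H4 5 of 13 and H1 0 of 5. The median log2 fold changes were -0.32 for H3, -0.32 for H2B, -0.21 for H2A, -0.20 for H4 and -0.01 for H1. Differences between types were not tested. All the counts read against 24.9% lower over all genes.

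**Figure D2:**
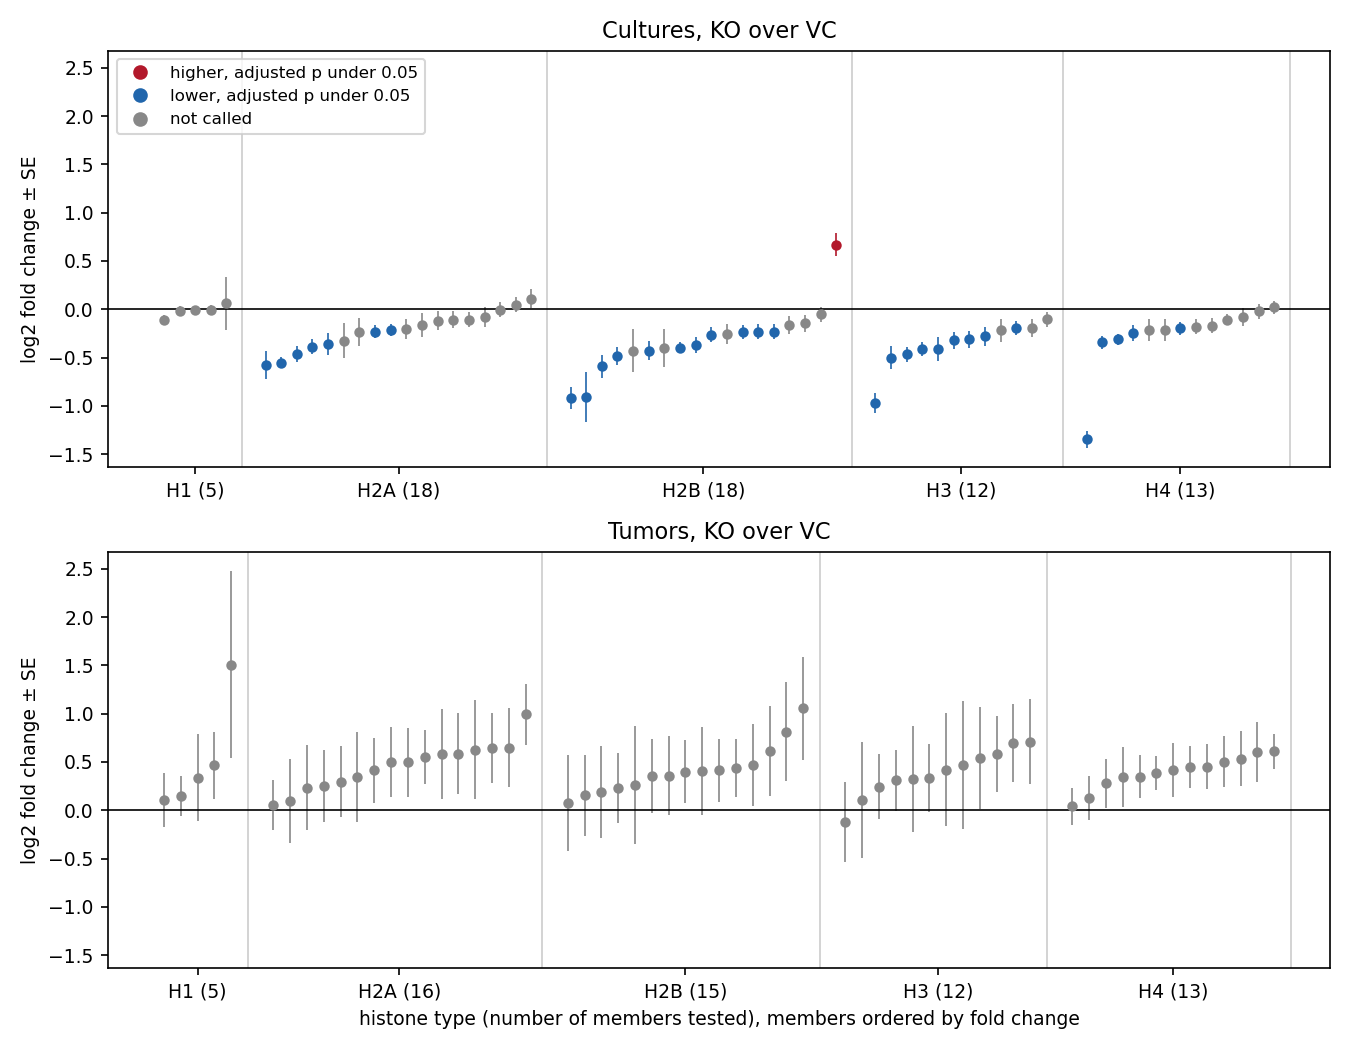
Log2 fold change, KO over VC, with its SE (y axis) for every histone gene tested, ordered by value within each type (x axis), in cultures (top) and tumors (bottom). In cultures 32 members are coloured as lower and 1 as higher, and no H1 gene is; in tumors none is called, and 60 of 61 points lie above 0.

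Summed over members, the CPM of a type shows the same split. H3 RNA summed to 333, 411 and 420 CPM in the KO-labelled cultures and 479, 473 and 538 CPM in the VC-labelled cultures. H2B RNA summed to 753, 853 and 920 CPM in the KO-labelled cultures and 1022, 1005 and 1125 CPM in the VC-labelled cultures, and H2A RNA to 475, 555 and 565 CPM and 586, 606 and 672 CPM in the same order. The groups did not overlap for any of these types. H4 RNA summed to 1048, 1174 and 1270.0 CPM in the KO-labelled cultures and 1350.0, 1391 and 1518 CPM in the VC-labelled cultures, again without overlap. H1 RNA summed to 1236, 1293 and 1318 CPM in the KO-labelled cultures, within or below the 1335, 1283 and 1325 CPM of the VC-labelled cultures, and the groups overlapped. Over all 69 genes the sums averaged 4208 ± 331 CPM in KO-labelled cultures and 4903 ± 238 CPM in VC-labelled cultures (SD, n = 3 each). H1 thus made up 30.6 ± 1.45% of histone counts in KO-labelled cultures and 26.8 ± 1.2% in VC-labelled cultures, and these shares did not overlap between the groups. These sums are descriptions and were not tested.

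**Figure D3:**
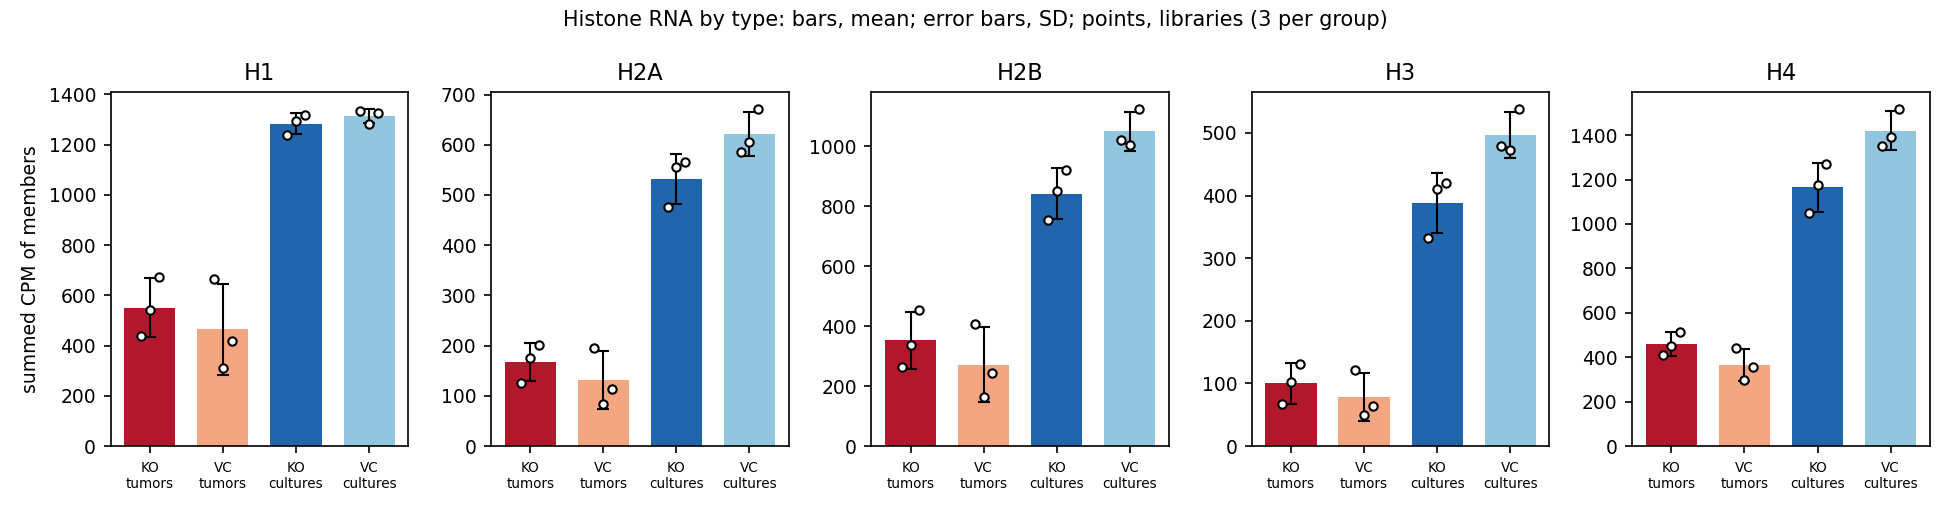
Summed CPM of the members of each histone type (y axis, from 0, a scale for each panel) in KO-labelled tumors, VC-labelled tumors, KO-labelled cultures and VC-labelled cultures; bars are means, error bars SDs and points the 3 libraries. Cultures stand above tumors in every type, and in cultures the KO-labelled points lie below the VC-labelled ones for H2A, H2B, H3 and H4, while those for H1 overlap.

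None of the H1 linker histone genes passed the test in cultures. Hist1h1e (H1.4) had 454, 483 and 482.5 CPM in the KO-labelled cultures and 514, 474 and 457 CPM in the VC-labelled cultures. Hist1h1c (H1.2) had 283, 294 and 300.00 CPM in the KO-labelled cultures and 282.5, 281 and 320.2 CPM in the VC-labelled cultures. The groups overlapped for both. On the log2 scale, KO over VC, Hist1h1e stood at -0.02 ± 0.05 and Hist1h1c at -0.00 ± 0.05 (edgeR with Benjamini-Hochberg adjustment, adjusted p = 0.798 and 0.964). Hist1h1d (H1.3) stood at -0.01 ± 0.04, Hist1h1b (H1.5) at -0.11 ± 0.05 and Hist1h1a (H1.1) at 0.06 ± 0.27. Hist1h1t, the testis-specific H1, had too few counts to be tested.

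Among H2A genes, the 7 that fell were Hist1h2ad, Hist3h2a, Hist1h2ac, Hist1h2ak, Hist1h2aj, Hist1h2al and Hist2h2ac. Hist3h2a, of the small Hist3 cluster, had 39.8, 41.9 and 46.3 CPM in the KO-labelled cultures and 63.7, 65.0 and 60.5 CPM in the VC-labelled cultures, a log2 fold change of -0.55 ± 0.06 (edgeR, Benjamini-Hochberg adjusted p = 6.35e-06). Hist1h2ac had 15.1, 15.1 and 15.9 CPM in the KO-labelled cultures and 19.1, 20.97 and 23.9 CPM in the VC-labelled cultures, a change of -0.46 ± 0.09 (adjusted p = 0.000692). In both, every KO-labelled culture lay below every VC-labelled one. Hist1h2ac (ENSMUSG00000069270) lies at chr13:23681467-23683948 on the minus strand. Hist1h2ak had 43.0, 56.2 and 55.1 CPM in the KO-labelled cultures and 67.3, 65.8 and 69.6 CPM in the VC-labelled cultures (-0.39 ± 0.08), and Hist1h2ad had 7.88, 9.58 and 11.2 CPM and 11.6, 14.5 and 17.0 CPM in the same order (-0.57 ± 0.15). Hist2h2ac, the H2A gene with the highest mean CPM (not scaled by length), had 64.0, 77.3 and 72.8 CPM in the KO-labelled cultures and 84.1, 80.2 and 85.4 CPM in the VC-labelled cultures, and fell by 0.22 on the log2 scale (adjusted p = 0.00932). The groups did not overlap in any of these 3. Hist1h2ab, next to it by mean CPM, did not pass the test, with 59.0, 71.9 and 67.2 CPM in the KO-labelled cultures and 62.4, 62.9 and 73.9 CPM in the VC-labelled cultures (-0.00 ± 0.08). The 11 tested H2A genes that were not called ranged from -0.32 (Hist1h2ao) to 0.11 (Hist2h2ab), and Hist1h2aa and Hist2h2aa1 had too few counts to be tested.

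H2B held both directions. Hist2h2bb, the H2B gene with the highest mean CPM, had 235, 263 and 276 CPM in the KO-labelled cultures and 362, 326 and 339 CPM in the VC-labelled cultures, a log2 fold change of -0.40 ± 0.06 (edgeR, Benjamini-Hochberg adjusted p = 0.000107). Hist1h2bp had 6.49, 7.33 and 7.68 CPM in the KO-labelled cultures and 13.2, 12.1 and 15.6 CPM in the VC-labelled cultures, a change of -0.91 ± 0.11 (adjusted p = 3.28e-05). Neither gene's groups overlapped. Hist1h2bm had 52.4, 59.7 and 62.6 CPM in the KO-labelled cultures and 71.1, 78.7 and 96.2 CPM in the VC-labelled cultures (-0.49 ± 0.10). Hist1h2bb had 75.4, 84.5 and 95.5 CPM in the KO-labelled cultures and 95.6, 100.3 and 106 CPM in the VC-labelled cultures (-0.23 ± 0.07), the smaller of these changes. The other H2B genes that fell were Hist3h2ba, Hist1h2bk, Hist1h2bj, Hist1h2bf, Hist1h2bg, Hist1h2be and Hist1h2bh, from -0.91 to -0.23. Hist2h2be (ENSMUSG00000068854, chr3:96221119-96223738, plus strand) was the exception, with 7.88, 7.40 and 9.10 CPM in the KO-labelled cultures and 5.25, 5.20 and 5.08 CPM in the VC-labelled cultures, and rose by 0.67 ± 0.12 (adjusted p = 0.000422). Every KO-labelled culture lay above every VC-labelled one. The 6 H2B genes that were not called ranged from -0.43 (Hist1h2br) to -0.05 (Hist1h2bc).

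Of H3 genes, 9 of 12 fell. Hist1h3d (ENSMUSG00000062808, chr13:23575763-23577011, plus strand, mm10) had 10.4, 12.2 and 10.4 CPM in the KO-labelled cultures and 19.9, 20.0 and 24.6 CPM in the VC-labelled cultures, a log2 fold change of -0.97 ± 0.10 (edgeR, Benjamini-Hochberg adjusted p = 6.87e-06). Hist2h3c1, an H3 gene of the Hist2 cluster, had 54.8, 67.6 and 70.9 CPM in the KO-labelled cultures and 88.1, 88.0 and 93.1 CPM in the VC-labelled cultures, a change of -0.47 ± 0.07 (adjusted p = 0.000206). In neither did the groups overlap. Hist1h3e had 44.5, 53.4 and 54.6 CPM in the KO-labelled cultures and 65.7, 65.0 and 73.2 CPM in the VC-labelled cultures (-0.41 ± 0.07). Hist1h3i had 15.6, 21.9 and 23.4 CPM in the KO-labelled cultures and 28.1, 27.5 and 31.6 CPM in the VC-labelled cultures (-0.50 ± 0.12). These groups did not overlap either. Hist1h3h, Hist2h3c2, Hist1h3f, Hist2h3b and Hist1h3g fell by 0.41 to 0.19 on the log2 scale. Hist1h3c, Hist1h3a and Hist1h3b did not pass the test and stood at -0.22, -0.19 and -0.10.

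H4 had the largest single change. Hist4h4 (ENSMUSG00000096010, chr6:136801553-136804415, minus strand, mm10), the only Hist4 gene, had 62.9, 74.8 and 89.2 CPM in the KO-labelled cultures and 195, 189 and 198 CPM in the VC-labelled cultures, with no overlap. KO over VC, it stood at -1.35 ± 0.09 on the log2 scale (edgeR with Benjamini-Hochberg adjustment, adjusted p = 1.56e-07). The median gene of chromosome 6 stood at -0.45, and with the median of each chromosome taken out Hist4h4 stood at -0.89. H2afj, a replication-independent H2A gene whose start lies 3829 bases from that of Hist4h4, had 17.6, 15.6 and 16.3 CPM in the KO-labelled cultures and 24.8, 29.0 and 26.7 CPM in the VC-labelled cultures (-0.69 ± 0.08, adjusted p = 1.12e-05), and stood at -0.24 with chromosome medians taken out. Hist2h4 (ENSMUSG00000091405, chr3:96261682-96263311, minus strand) had 124, 124 and 138 CPM in the KO-labelled cultures and 151, 157 and 172.5 CPM in the VC-labelled cultures (-0.31 ± 0.06, adjusted p = 0.000737). Hist1h4m had 73.8, 82.3 and 84.7 CPM in the KO-labelled cultures and 95.6, 97.6 and 114 CPM in the VC-labelled cultures (-0.34 ± 0.07), and Hist1h4i had 43.8, 45.3 and 51.7 CPM and 49.8, 56.7 and 61.9 CPM in the same order (-0.25 ± 0.08). Of these 3, Hist1h4i alone had groups that overlapped. Hist1h4k also fell, by 0.20. Hist1h4d, the H4 gene with the highest mean CPM, was not called, with 223, 255 and 265 CPM in the KO-labelled cultures and 271, 266 and 266.5 CPM in the VC-labelled cultures (-0.11 ± 0.05), and the 8 H4 genes not called ranged from -0.22 to 0.02.

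**Figure D4:**
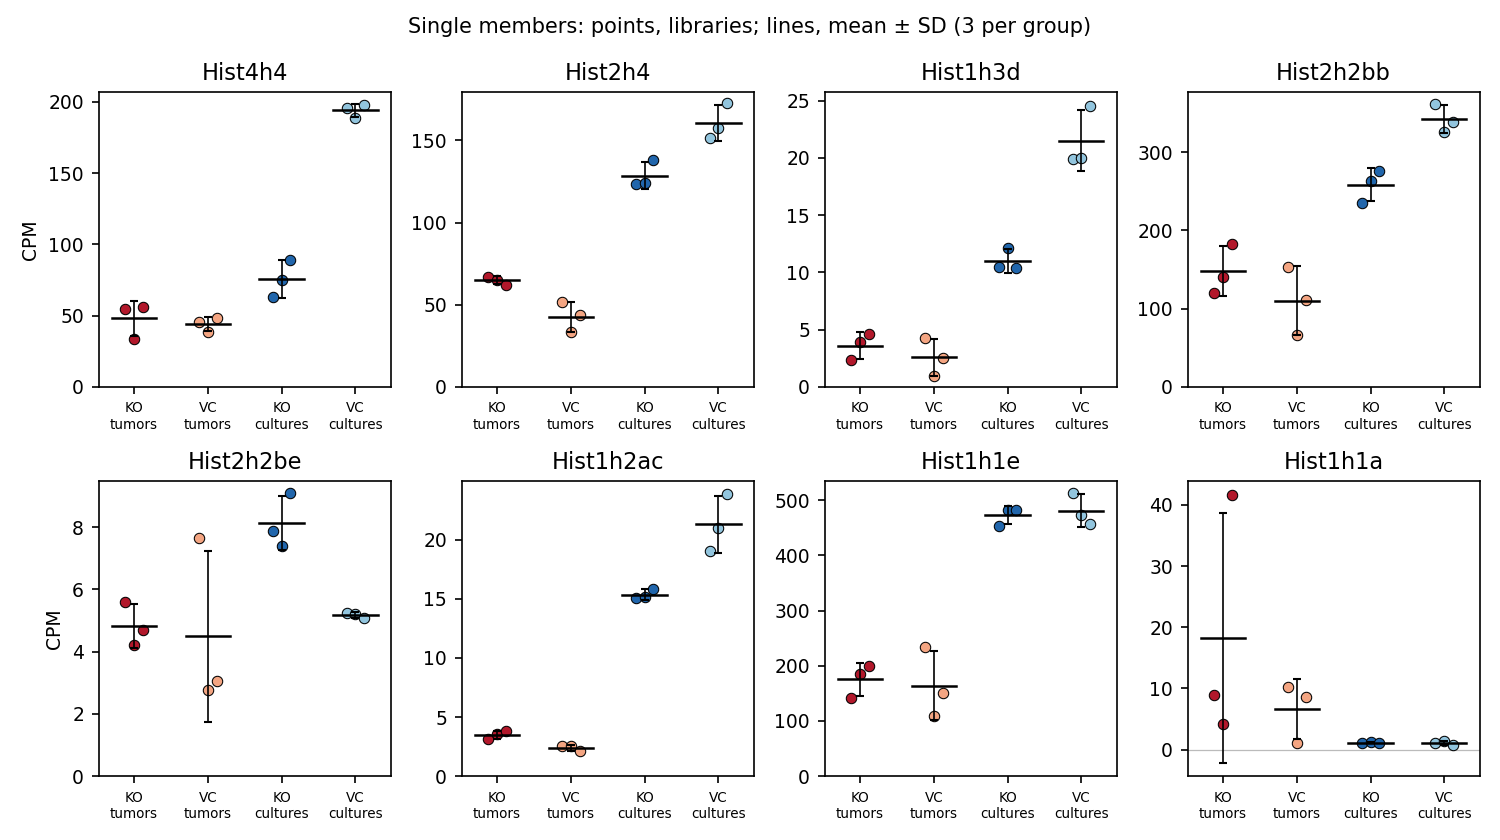
CPM (y axis, a scale for each panel) of 8 histone genes in KO-labelled tumors, VC-labelled tumors, KO-labelled cultures and VC-labelled cultures; points are libraries, lines the mean and SD of 3. Hist4h4, Hist2h4, Hist1h3d, Hist2h2bb and Hist1h2ac are lower in KO-labelled than in VC-labelled cultures, Hist2h2be is higher, Hist1h1e overlaps, and of the 8 only Hist1h1a is higher in most tumors than in cultures.

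Chromosome position was checked because the genes lie on few chromosomes and the median fold change in cultures was not the same on each chromosome. The median gene stood at 0.33 on chromosome 3, at -0.00 on chromosome 13 and at -0.04 on chromosome 11 (log2, KO over VC). On chromosome 3, against that higher median, 6 of 9 tested Hist2 genes fell and 1 rose. Of 54 tested Hist1 genes 23 fell, and both Hist3 genes fell. These counts stand beside 24.9% lower and 23% higher over all genes. With each chromosome's median taken out, 32 members again fell, 31 of them shared with the fit as given, against 3217 of 15705 genes. The Hist2 genes then stood lower, at -0.64 for Hist2h4, -0.73 for Hist2h2bb, -0.79 for Hist2h3c1, -0.54 for Hist2h2ac and 0.34 for Hist2h2be. Pogz, also on chromosome 3, stood at 0.12.

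Near-identical copies limit the values of single genes. The share of a member's 50-base stretches that occur in another gene's transcripts ran from 0% (Hist1h1a, Hist1h1b, Hist1h1t and Hist2h2be) to 100% (Hist2h2aa1, Hist2h2aa2, Hist2h3b and Hist2h3c1), and how reads that fit several genes were counted is not given in the sources used here. Among the 32 tested members under 50% shared, 15 fell and 1 rose (median -0.23). Among the 34 with 50% or more, 17 fell (median -0.22). Of all genes tested in cultures, 24.9% fell and 23% rose. Hist4h4 was 8.52% shared, Hist2h4 1.01%, Hist1h2ac 14.1%, Hist1h3d 24.8% and Hist1h1e 32.0%. Hist1h2be overlaps Hist1h1e on the same strand, and reads of these genes cannot be told apart where they overlap.

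H2A and H2B genes often lie head to head, so neighbours start from 1 shared stretch of DNA. GENCODE holds 13 such pairs among the members, 175 to 305 bases apart, 12 of them with both genes tested in culture. Both genes fell in 2 pairs (Hist1h2aj with Hist1h2bm, and Hist1h2bf with Hist1h2ad), exactly 1 fell in 7, and neither was called in 3. The share of all tested genes that fell was 24.9%. The gap between the log2 fold changes within a pair had a median of 0.23 and ran from 0.03 to 0.88. The widest gap was in the Hist2h2ac and Hist2h2be pair, 238 bases apart, at -0.22 and 0.67. Hist1h2ac and Hist1h2bc, 250 bases apart, stood at -0.46 and -0.05. Differences within pairs were not tested.

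Annotated transcripts also differ in how far they run past the stem-loop. Of 18 members whose transcript runs over 200 bases past it, 12 fell in culture (median -0.28), and of 24 tested members with a stem-loop and a shorter end, 11 fell (median -0.22). Of 24 tested members with no stem-loop in the annotated transcript, 9 fell and 1 rose (median -0.20). Among core types alone, 12 of 15 with the longer end and 11 of 24 with the shorter end fell. Over all genes tested in cultures, 24.9% fell, and differences between these classes were not tested. Hist4h4 runs 2445 bases past its stem-loop, Hist1h2ac 2010, Hist2h4 1257 and Hist1h3d 752. The H1 genes Hist1h1e and Hist1h1c, with 1153 and 840 bases, were not called. Transcript ends in these samples were not measured.

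In tumors, no histone gene passed the test. Of 61 members tested, 0 were called (edgeR and Benjamini-Hochberg adjustment; percent called over all 17153 genes, 0), and DESeq2 and limma-voom also called 0 members. At an unadjusted p under 0.05, edgeR gave 2 members, Hist2h4 and Hist2h2ab, and 956 genes in all. The log2 fold changes, KO over VC, were above 0 in 60 of 61 members, with a median of 0.41, against 52.7% above 0 and a median of 0.02 over all genes. All 3 KO-labelled tumors lay above all 3 VC-labelled tumors in 6 of the 61 members, against 4.96% of genes, and below them in 0, against 5.43%. Another 8 members had too few counts to be tested in tumors and are outside these counts. Members share libraries, so these counts are not independent of each other.

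Those 6 were Hist1h2ac, Hist2h2ab, Hist1h4c, Hist1h4h, Hist1h4j and Hist2h4. Hist2h4 had 67.0, 65.2 and 62.2 CPM in the KO-labelled tumors and 51.4, 33.1 and 43.7 CPM in the VC-labelled tumors, 0.61 ± 0.18 on the log2 scale (edgeR, Benjamini-Hochberg adjusted p = 0.861). Hist2h2ab had 6.27, 7.74 and 4.43 CPM in the KO-labelled tumors and 3.82, 2.88 and 2.66 CPM in the VC-labelled tumors (0.99 ± 0.31). Hist1h2ac had 3.13, 3.60 and 3.77 CPM in the KO-labelled tumors and 2.55, 2.52 and 2.13 CPM in the VC-labelled tumors (0.55 ± 0.28). Their groups did not overlap, yet none passed the adjusted threshold. Most members overlapped, as Hist4h4 did with 54.5, 33.6 and 55.9 CPM in the KO-labelled tumors and 45.6, 38.7 and 48.1 CPM in the VC-labelled tumors (0.13 ± 0.23). Hist1h3i alone had a value below 0 (-0.12 ± 0.42), with 3.05, 3.99 and 5.99 CPM in the KO-labelled tumors and 7.64, 3.48 and 3.46 CPM in the VC-labelled tumors.

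Members of high CPM varied widely between tumors of 1 label. Hist1h1e had 142, 185 and 199 CPM in the KO-labelled tumors and 233, 109 and 150.5 CPM in the VC-labelled tumors. Hist1h1c had 129, 158 and 173 CPM in the KO-labelled tumors and 182, 124 and 112 CPM in the VC-labelled tumors. Hist2h2bb had 120.5, 141 and 183 CPM in the KO-labelled tumors and 153, 66.0 and 111 CPM in the VC-labelled tumors. In each, VC-labelled tumor POGZ_VC_8448 was the lowest or next to it and the groups overlapped. Hist1h4d had 78.6, 91.8 and 90.0 CPM in the KO-labelled tumors and 111, 71.6 and 72.8 CPM in the VC-labelled tumors, and Hist1h2bb had 18.96, 31.4 and 42.6 CPM and 31.4, 21.6 and 18.3 CPM in the same order. Hist1h3e had 11.6, 14.2 and 23.6 CPM in the KO-labelled tumors and 16.8, 11.5 and 12.1 CPM in the VC-labelled tumors, and Hist1h3d had 2.31, 3.91 and 4.60 CPM and 4.24, 0.959 and 2.52 CPM in the same order. VC-labelled tumor POGZ_VC_8447, the library of lowest total count, stood above the other VC-labelled tumors in all of these.

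The other members described in cultures had these values in tumors. Hist2h3c1 had 11.7, 21.2 and 20.8 CPM in the KO-labelled tumors and 17.8, 6.24 and 9.83 CPM in the VC-labelled tumors. Hist1h2bp had 1.48, 3.37 and 3.37 CPM in the KO-labelled tumors and 2.76, 1.199 and 1.59 CPM in the VC-labelled tumors, and Hist1h2bm had 12.1, 17.7 and 26.4 CPM and 24.4, 7.32 and 11.7 CPM in the same order. Hist3h2a had 19.9, 18.2 and 20.2 CPM in the KO-labelled tumors and 25.9, 13.3 and 17.7 CPM in the VC-labelled tumors. The 2 labels overlapped in all 4. Hist2h2ac had 17.1, 25.5 and 25.4 CPM in the KO-labelled tumors and 26.5, 10.9 and 14.5 CPM in the VC-labelled tumors, and Hist1h2ab had 11.1, 20.9 and 24.4 CPM and 22.7, 11.9 and 12.1 CPM in the same order. Hist1h2ak had 8.41, 12.5 and 17.6 CPM in the KO-labelled tumors and 18.7, 5.996 and 11.96 CPM in the VC-labelled tumors, and Hist1h2ad had 1.90, 3.60 and 3.86 CPM and 2.97, 2.04 and 2.92 CPM in the same order. Hist1h4m had 28.4, 34.1 and 42.4 CPM in the KO-labelled tumors and 36.5, 17.8 and 25.1 CPM in the VC-labelled tumors, and Hist1h4i had 12.2, 17.9 and 19.8 CPM and 14.9, 9.59 and 11.2 CPM in the same order. None of these separated the labels. Hist2h2be, higher in the KO-labelled cultures, had 5.61, 4.22 and 4.68 CPM in the KO-labelled tumors and 7.64, 2.76 and 3.06 CPM in the VC-labelled tumors (0.16 ± 0.42).

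Markers of dividing cells moved with histone RNA across the tumors. Over all 69 genes the sums were 1303, 1607 and 1974 CPM in KO-labelled tumors POGZ_KO_8454, POGZ_KO_8455 and POGZ_KO_8459, and 1833, 905 and 1194 CPM in VC-labelled tumors POGZ_VC_8447, POGZ_VC_8448 and POGZ_VC_8451. Mki67 and Top2a, which mark dividing cells, summed to 425, 831 and 1279 CPM in the KO-labelled tumors and 839, 381 and 571 CPM in the VC-labelled tumors, in the same library order. Both sums were highest in KO-labelled tumor POGZ_KO_8459 and lowest in VC-labelled tumor POGZ_VC_8448. In bulk tumors, fewer cells of a type and less RNA per cell cannot be told apart. Leukocyte markers (6 of 7 matched) summed to 468 to 984 CPM in KO-labelled tumors and 456 to 614 in VC-labelled tumors, against 13.04 to 15.1 in KO-labelled cultures and 22.5 to 27.6 in VC-labelled cultures. Fibroblast markers (4 of 4) summed to 2342 to 4025 and 1574 to 2502 CPM in the KO-labelled and VC-labelled tumors, and endothelial markers (3 of 3) to 195 to 244 and 116 to 221 CPM. In cultures, Csf1r gave nearly all of the leukocyte sum, fibroblast markers were at most 3.797 CPM with Dcn at 0 in every library, and endothelial markers were at most 0.858 CPM. The part of host cells or of cell division in the tumor values was not tested.

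A test of the difference between the label's effects in tumors and in cultures called 3 members. Tumors were bulk tissue with host cells, and the part of host cells in these differences was not tested. In a model of all 12 samples, the tumor effect minus the culture effect was above 0 in 65 of 66 members, with a median of 0.73. Over all 18419 genes, 52.6% were above 0 and the median was 0.03. The 66 include members too rare to be tested within the tumors, where 61 were tested. Hist4h4, Hist2h4 and Hist1h2ac passed the test and no member passed in the other direction, against 2.05% of genes in either direction, 1.13% higher and 0.912% lower. The differences stood at 1.48 ± 0.27, 0.93 ± 0.19 and 1.02 ± 0.22 in that order (edgeR, Benjamini-Hochberg adjusted p = 0.0176, 0.0297 and 0.0362). At an unadjusted p under 0.05 the same edgeR test gave 22 of the 66 members, against 2831 of all 18419 genes. The count of members called after adjustment was 0 when KO-labelled culture 1 or 2, or any VC-labelled culture, was left out. It was 1 without KO-labelled culture 3, KO-labelled tumor POGZ_KO_8455 or VC-labelled tumor POGZ_VC_8451. It was 5 without VC-labelled tumor POGZ_VC_8447 and 14 without KO-labelled tumor POGZ_KO_8454. Calls over all genes moved as well. The count of higher genes, 209 as given, was 85 to 101 with any culture left out, 222 without POGZ_VC_8447 and 800 without POGZ_KO_8454. The next members by p were Hist1h2an and Hist1h2br. Both had too few counts to be tested within the tumors and entered this test through the cultures, so their values rest on very low tumor counts. Hist1h2an had 0.907, 1.15 and 2.46 CPM in KO-labelled tumors, 0.212, 0.360 and 0.531 in VC-labelled tumors, 9.56, 9.64 and 9.01 in KO-labelled cultures and 9.54, 11.2 and 11.9 in VC-labelled cultures (2.14 ± 0.54, adjusted p = 0.0746). Hist1h2br had 0.577, 0.537 and 1.395 CPM in KO-labelled tumors, 0.212, 0.120 and 0.266 in VC-labelled tumors, 2.32, 1.22 and 2.24 in KO-labelled cultures and 2.48, 2.52 and 3.02 in VC-labelled cultures (2.51 ± 0.72, adjusted p = 0.114).

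Tumors held less histone RNA than cultures under both labels. Of 66 members, 64 were lower in KO-labelled tumors than in KO-labelled cultures and 1 was higher (median -1.60), against 26.4% of genes lower and 37.7% higher. The same counts, 64 lower and 1 higher, held for VC-labelled tumors against VC-labelled cultures (median -2.32), against 27% of genes lower and 37.9% higher. The medians over all genes were 0.16 and 0.17. The expression filter kept 66 members over all 12 samples but 61 within the tumors alone. Some members thus entered these contrasts only through the cultures, where they are higher, and their lower values in tumors follow in part from the filter. They were of types H2A (18 tested over all 12 samples, 16 within tumors) and H2B (18 and 15). The sum over all members was 1628 ± 336 CPM in KO-labelled tumors and 1311 ± 474 CPM in VC-labelled tumors (SD, n = 3 each), 0.387 and 0.267 times the sums of the cultures of the same label. These contrasts also compare mixed tissue with 1 cell type, and 2 tables of counts, which cannot be told apart from the growth system.

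**Figure D5:**
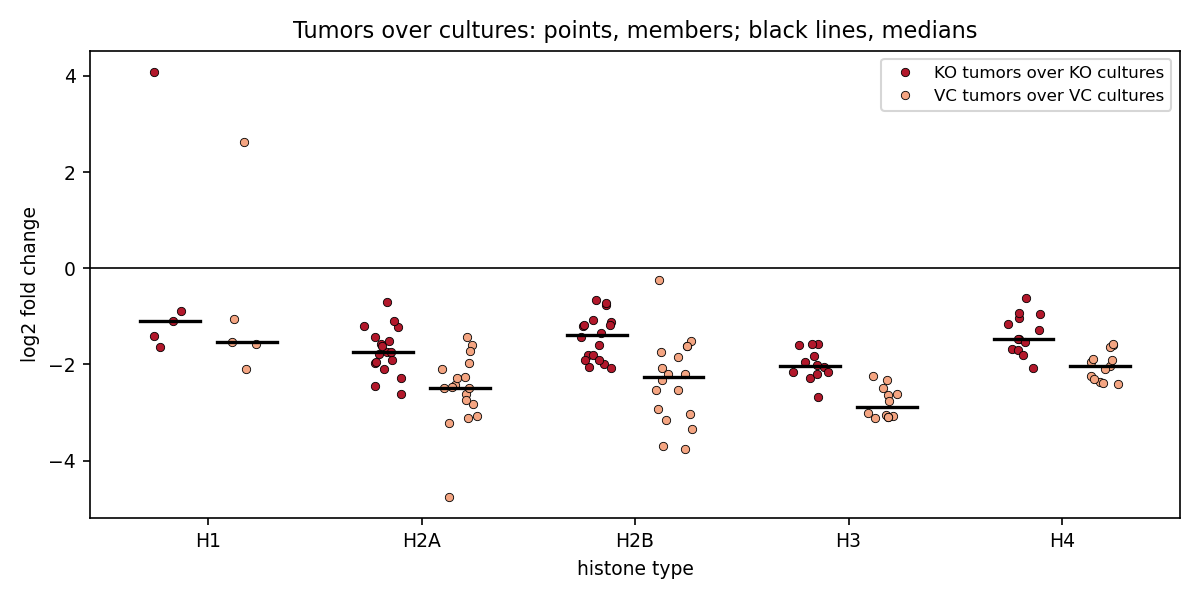
Log2 fold change, tumors over cultures (y axis), of each tested histone gene by type (x axis), for KO-labelled (dark red) and VC-labelled (light) samples; black lines are medians. All points but Hist1h1a lie below 0, with H3 lowest (medians -2.03 and -2.88) and H1 highest (-1.11 and -1.53). Some H2A and H2B points are members that passed the expression filter only through the cultures.

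By type, the median was lowest for H3 and highest for H1. Medians were -2.03 and -2.88 for H3 (KO-labelled, then VC-labelled), -1.74 and -2.48 for H2A, -1.39 and -2.26 for H2B, -1.47 and -2.04 for H4 and -1.11 and -1.53 for H1. H3 made up 6.05 ± 0.822% of histone counts in KO-labelled tumors and 5.79 ± 0.724% in VC-labelled tumors, against 9.19 ± 0.484% and 10.1 ± 0.242% in the KO-labelled and VC-labelled cultures. H1 made up 33.8 ± 0.247% and 35.2 ± 1.08% in the KO-labelled and VC-labelled tumors. Every tumor was below every culture in its H3 share and above every culture in its H1 share. Hist1h2bf was the member not called under the KO label (-0.67) and Hist2h2be the one not called under the VC label (-0.24).

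Hist1h1a was the single histone gene higher in tumors, and it is named here after its values were seen. Hist1h1a (ENSMUSG00000049539) lies at chr13:23763666-23764406 on the plus strand. It had 8.99, 4.14 and 41.7 CPM in KO-labelled tumors POGZ_KO_8454, POGZ_KO_8455 and POGZ_KO_8459, 10.2, 1.08 and 8.64 in VC-labelled tumors POGZ_VC_8447, POGZ_VC_8448 and POGZ_VC_8451, 1.10, 1.16 and 1.05 in the KO-labelled cultures and 1.13, 1.34 and 0.702 in the VC-labelled cultures. The KO-labelled tumors all lay above the KO-labelled cultures, while VC-labelled tumor POGZ_VC_8448 lay within the range of the VC-labelled cultures. The log2 fold changes, tumors over cultures, were 4.08 ± 0.88 under the KO label and 2.63 ± 0.90 under the VC label (edgeR, Benjamini-Hochberg adjusted p = 0.00164 and 0.0225). The VC call was lost without VC-labelled culture 1 or 3 or VC-labelled tumor POGZ_VC_8447 or POGZ_VC_8451 (adjusted p = 0.0549, 0.0712, 0.0743 and 0.0779). Hist1h1a encodes H1.1, and none of its 50-base stretches occur in another gene. Its highest library, KO-labelled tumor POGZ_KO_8459, also had the highest leukocyte marker sum (984 CPM) and the highest Mki67 and Top2a sum (1279 CPM). KO-labelled tumor POGZ_KO_8455, next by leukocyte marker sum (618 CPM), had 4.14 CPM of Hist1h1a. The part of leukocytes or of cell division was not tested.

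Levels between genes are comparable only per length. Per kilobase of exon, H4 took the largest share of histone counts in every library, 37.7 ± 2.85% in KO-labelled tumors, 38.0 ± 5.18% in VC-labelled tumors, 35.9 ± 0.343% in KO-labelled cultures and 35.2 ± 0.523% in VC-labelled cultures. H3 took the smallest, 6.84 ± 0.743%, 6.96 ± 1.01%, 10.0 ± 0.458% and 10.9 ± 0.232% in the same order. In VC-labelled cultures the member with the highest mean per kilobase was Hist1h1b (325 CPM per kb), ahead of Hist1h4k (272 CPM per kb). The short annotated ends of some genes raise such values.

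Genes of the machinery that makes and degrades histone mRNA were called in cultures in both directions, with more lower than higher in each list. Over all genes tested, 24.9% were lower and 23% higher, and the lists were not tested against this. Of 20 genes of histone transcription and 3′ processing, 3 rose and 8 fell (median -0.10), and of 9 genes of histone mRNA decay, 2 rose and 4 fell (median -0.13). Ncbp2, of the cap-binding complex, had 66.4, 65.7 and 63.3 CPM in the KO-labelled cultures and 40.6, 39.3 and 36.7 CPM in the VC-labelled cultures, and rose by 0.75 ± 0.05. Its partner Ncbp1 had 108, 108.5 and 106 CPM in the KO-labelled cultures and 146, 134 and 135 CPM in the VC-labelled cultures, and moved the other way (-0.36 ± 0.04). Casp8ap2 (FLASH), which binds the U7 snRNP, had 72.7, 72.3 and 72.0 CPM and 89.1, 90.8 and 89.7 CPM in the same order (-0.31 ± 0.04), and the cleavage scaffold Sympk 82.7, 86.0 and 85.1 CPM and 106, 106 and 99.3 CPM (-0.29 ± 0.04). Adjusted p (edgeR, Benjamini-Hochberg) ran from 1.56e-07 to 7.74e-05. In 1 fit of all 12 samples, 17 of the 20 named genes of the 5 lists, all called within the cultures, were no longer called, and the exceptions were Ncbp2, Mcm3 and H2afj. With chromosome medians taken out, Casp8ap2 and Ncbp1, both on chromosome 4, stood at -0.03 and -0.08 and no longer passed.

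Among decay factors, the exonuclease Eri1, which trims the stem-loop end, had 161, 157 and 161 CPM in the KO-labelled cultures and 198.5, 195 and 198.5 CPM in the VC-labelled cultures (-0.30 ± 0.04). The helicase Upf1 had 145, 151 and 149 CPM in the KO-labelled cultures and 181, 182 and 185 CPM in the VC-labelled cultures (-0.29 ± 0.04). The uridylyltransferase Zcchc11 had 88.2, 86.0 and 86.4 CPM and 109.9, 105 and 104 CPM in the same order (-0.28 ± 0.04), and stood at -0.01 with chromosome medians taken out. These 3 fell and the exonuclease Xrn1 rose, with 116.5, 112 and 109 CPM in the KO-labelled cultures and 99.2, 102 and 96.0 CPM in the VC-labelled cultures (0.19 ± 0.04; edgeR, Benjamini-Hochberg adjusted p = 0.00237).

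Most listed genes of DNA replication fell in cultures. Of 26 such genes 17 fell and 2 rose (median -0.18), of 24 chaperone genes 6 fell and 3 rose (median -0.02), and of 10 tested replication-independent histone genes 4 fell and 0 rose (median -0.09). Over all genes tested, 24.9% fell and 23% rose, so the share of chaperone genes that fell was near that of all genes. Differences between the lists were not tested. The replicative helicase subunit Mcm3 had 150.2, 146 and 149 CPM in the KO-labelled cultures and 285, 273 and 278 CPM in the VC-labelled cultures, Mcm2 had 129.5, 131 and 132.5 CPM and 204, 195 and 189 CPM in the same order, and Mcm6 292, 286 and 289 CPM and 392, 375 and 382 CPM. The licensing factor Cdt1 had 75.7, 79.0 and 78.4 CPM in the KO-labelled cultures and 105, 103 and 110.3 CPM in the VC-labelled cultures. No group overlapped, and the log2 fold changes were -0.90, -0.57, -0.40 and -0.44 for Mcm3, Mcm2, Mcm6 and Cdt1. Mcm2, on chromosome 6, stood at -0.12 with chromosome medians taken out. Mki67 and Top2a summed to 1684 to 1752 CPM in KO-labelled cultures and 2042 to 2205 CPM in VC-labelled cultures, and the part of cell division in the histone values was not tested.

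The chaperones that fell include Hjurp, which loads the centromeric histone CENP-A, with 210.2, 217.5 and 211 CPM in the KO-labelled cultures and 287, 309 and 302.5 CPM in the VC-labelled cultures (-0.49 ± 0.04). Nasp, which holds soluble H3 and H4, had 158, 160.0 and 158 CPM in the KO-labelled cultures and 217, 216 and 201 CPM in the VC-labelled cultures (-0.41 ± 0.04, and -0.13 with chromosome medians taken out), and Asf1b, another H3-H4 chaperone, 55.0, 54.7 and 58.2 CPM and 73.2, 74.5 and 75.4 CPM in the same order (-0.40 ± 0.04). Anp32e, which removes H2A.Z, rose as deposited, with 242, 245 and 252 CPM in the KO-labelled cultures and 203, 207 and 203 CPM in the VC-labelled cultures (0.28 ± 0.04), but lies on chromosome 3 and stood at -0.05 with chromosome medians taken out. Outside the clusters, H2afy (macroH2A1) had 110.2, 119 and 118 CPM in the KO-labelled cultures and 143, 145 and 137 CPM in the VC-labelled cultures (-0.29 ± 0.04). H2afx, the H2A phosphorylated at DNA breaks, had 99.0, 105 and 107 CPM in the KO-labelled cultures and 119, 124.5 and 139 CPM in the VC-labelled cultures (-0.30 ± 0.06), and Cenpa 86.3, 79.7 and 83.5 CPM and 92.3, 95.4 and 109 CPM in the same order (-0.24 ± 0.06). These 3 fell, together with H2afj. In tumors none of the genes of the 5 lists was called, with medians of 0.04 for transcription and processing, -0.12 for decay, 0.06 for chaperones, 0.22 for DNA replication and 0.07 for replication-independent histones.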

How the data were processed

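Total RNA of 12 samples was depleted of ribosomal RNA and made into libraries with a KAPA kit, per the labels' protocols. The authors deposited raw counts per gene, 1 table for cultures and 1 for tumors, with total counts per library from 4712001 to 21863223. Per the submitters' processing notes, the tools were Trimmomatic 0.32, STAR 2.3.0e and featureCounts 1.4.4 with the mm10 build; the counting of strand and of reads with several matches is not given in the sources used here.

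CPM were computed by library total, for description. KO over VC was tested with edgeR 4.0.16 (R 4.3.3; default expression filter, TMM scaling, quasi-likelihood test) within the 6 cultures and within the 6 tumors. Differences between systems, and tumors over cultures, came from 1 model of all 12 samples. P-values were Benjamini-Hochberg adjusted over all genes tested, with a threshold of 0.05. The SE of a log2 fold change is its size divided by the square root of the F statistic. The code was tested on simulated data. Low counts limit the precision of rare members, most of all in the tumor libraries of lowest total.

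Members were placed on GENCODE M21 (GRCm38, the same assembly as mm10), 62 by gene ID and 7 by symbol. Their transcripts gave stem-loops and shared stretches of 50 bases, and RefSeq GRCm38.p6 gave promoters. Coordinates are 1-based. The members and gene lists were chosen with earlier results of these data known. Values in every sample were given for up to 4 called members of smallest p per type and system, the 2 of highest mean CPM per type, the 5 of smallest p for the difference, Pogz, and up to 4 called genes of smallest p per list. Alternatives were DESeq2 1.42.0, limma-voom (limma 3.58.1), other scalings and filters, a threshold of 0.01, all 12 samples in 1 fit or only the 6 compared, chromosome medians taken out, a replicate block, thinned tumor libraries and each library left out. Python 3.11.15 with pandas 2.3.3 and matplotlib 3.10.9 made the tables and figures.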

Additional observations from a re-analysis of the deposited data

Results flagged for a closer look

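The test of the difference between the label's effects in bulk tumors and in cultures called 3 histone genes. The tumor effect minus the culture effect was 1.48 on the log2 scale for Hist4h4, 0.93 for Hist2h4 and 1.02 for Hist1h2ac (edgeR, Benjamini-Hochberg adjusted p = 0.0176, 0.0297 and 0.0362). In each gene all 3 KO-labelled cultures lay below all 3 VC-labelled cultures. In tumors, all 3 KO-labelled libraries lay above all 3 VC-labelled ones for Hist2h4 and Hist1h2ac, and the labels overlapped for Hist4h4. Under 16 alternatives each, the difference stayed above 0, with adjusted p up to 0.0645 for Hist4h4, 0.108 for Hist2h4 and 0.115 for Hist1h2ac. The call was lost under 6, 9 and 11 of them in that order. Chromosome medians were not taken out in this test. The median gene of chromosome 6, which holds Hist4h4, stood at -0.45 in cultures and -0.04 in tumors. The part of chromosome position or of host cells in the differences was not tested.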

How the results depend on the processing

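In cultures, the count of members lower under the KO label, 32 as given, was 2 with all 12 samples in 1 fit. It was 19 at an adjusted p under 0.01 and 18 to 36 with 1 library left out. Over all genes the count lower, 3913 as given, was 838 with all 12 samples in 1 fit and 3220 to 3685 with 1 library left out. The count over all genes at 0.01 is not given here. The count of members higher was 0 with all 12 samples in 1 fit and 1 with any library left out. In tumors, 0 members were called under every alternative run, while over all genes DESeq2 called 26 higher and 40 lower and 1 fit of all 12 samples called 16 and 48. The count of members with a higher effect in tumors than in cultures, 3 as given, was 7 with DESeq2 and 0 to 14 with 1 library left out. Over all genes that count, 209 as given, was 516 with DESeq2 and 85 to 800 with 1 library left out. VC-labelled tumors over VC-labelled cultures gave 2 higher members with no filter and 0 to 1 with 1 library left out. Counts of lower members in both contrasts of tumors over cultures were 58 to 65 under all alternatives.

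Culture replicate numbers were not shown to pair the samples: the deviations of same-numbered KO-labelled and VC-labelled cultures correlated at -0.09, -0.01 and 0.04 over 15705 genes, and culture 2 of the KO label correlated best with culture 1 of the VC label. With the replicate block, 39 members fell in cultures, 31 of them shared with the 32, against 3783 of 15705 genes. In the test of the difference between systems 0 members then passed, against 80 genes higher and 51 lower.

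In cultures with all 12 samples in 1 fit, Pogz was at 0.44 (edgeR with Benjamini-Hochberg adjustment, adjusted p = 0.0980). Its tumor value of 0.11 changed sign to -0.0088 with chromosome medians taken out and ran from -0.068 to 0.25 with 1 library left out, below 0 without KO-labelled tumor POGZ_KO_8454 or VC-labelled tumor POGZ_VC_8447 (-0.0051); it passed the test under none of these. Anp32e stood at -0.047 in cultures (adjusted p = 0.344) with chromosome medians taken out. With chromosome medians taken out, the chromosome 3 median was subtracted, 0.33 in cultures for Anp32e and 0.12 in tumors for Pogz. The cause of the other changes was not tested. Of the 18 named members called in cultures, 2 were called under every alternative and 0 changed direction. H1 sums in VC-labelled cultures came to 1349 CPM when ribosomal and small RNA genes were left out of the total. The expression filter left 61 members in tumors and 66 in cultures.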
